A study of Mus musculus with 3 samples.

Results

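The respiratory chain of tumour macrophages was described through its structural genes, those of the nucleus and those of mitochondrial DNA. Members were the features whose symbols start with Nduf (assembly factors Ndufaf excepted), Uqcr, Atp5 or Cox4 to Cox8, together with Sdha to Sdhd, Cycs and the mitochondrial protein genes, written mt- below, with at least 100 UMIs in total. Of 31053 features 99 had such a symbol and 94 of them were members, 81 nuclear and 13 mt-. The 5 others held too few UMIs: Ndufa4l2 had 7, Cox8b had 3, and Cox7b2, Cox8c and a second gene ID of Atp5o had 0. The membership rule used no difference between cells or samples.

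The samples were macrophages from tumours of 3 mice of strain FVB/N-Tg(MMTVPyVT)634Mul/J, in which the MMTV promoter drives the polyoma virus middle T antigen in mammary epithelium. At a tumour volume of 750 mm3, cells that were CD45+, CD11b+, F4/80+ and Ly6G- were sorted after collagenase and DNase digestion, and a 10x 3′ v3 library was sequenced for each mouse. The 3 libraries formed 1 group with no untreated or tumour-free control, so the comparisons ran between classes of cells within the mice. A unique molecular identifier (UMI) counts 1 captured transcript molecule, and levels are given as CPM, a gene's UMIs per 1000000 UMIs, not divided by length because only 3′ ends are read.

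Oxidative phosphorylation runs on 5 complexes of the inner mitochondrial membrane. Complexes I and II pass electrons from NADH and succinate to ubiquinone, complex III passes them on to cytochrome c, complex IV reduces oxygen, and complex V, the ATP synthase, uses the proton gradient made by I, III and IV. Complex II is encoded by nuclear genes alone, whereas the other complexes combine nuclear subunits with subunits translated inside the mitochondrion from its own DNA. Macrophages are known for shifting between glycolysis and respiration with their activation state.

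Sequencing had given 1074, 2470 and 7429 barcodes for mice 1, 2 and 3, on totals of 12454677, 41097369 and 86178419 UMIs, and 8 barcode sequences occurred in more than 1 library. At least 500 genes and at most 15% mt- UMIs left 9749 cells, of which 9662 (656, 2069 and 6937) were taken as macrophages after doublet calls and a tumour epithelium-like cluster had been set aside. Csf1r, the receptor that macrophages depend on, had a UMI in 96.1% ± 0.868 of them (mean ± SD, n = 3 mice), and Adgre1, which encodes F4/80, in 86.9% ± 1.72. Clustering without the members, without ribosomal protein genes and without the related gene lists used below gave 13 macrophage classes. Names were rebuilt from marker genes, "-like" marks such a name, and classes whose markers did not settle a name keep a number. Cluster 4 (1806 cells) was led by Cd207, Il12b and Gpr84, cluster 1 (860) by Gm26522 and Txnip, and cluster 8 (1047) by Ccl8, Apold1 and Gdf15. Cluster 13 (358) was led by Retnla, Lyz1 and Ear2. Cluster 0 (283) was led by the non-coding genes AY036118 and AW112010 and by Ccl8, with Tnfaip8l2 and the non-coding Gm42418 among its other leading genes. The classes were formed from the same cells that were then compared, so the p-values do not measure a difference independent of how the classes were formed.

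Transcripts of mitochondrial DNA outnumbered the nuclear members. The 13 mt- genes took 4.80% ± 0.143 of all UMIs (n = 3 mice), and the nuclear members together took 1.92% ± 0.137 of the UMIs that were not mitochondrial. The mean log2 ratio of the summed UMIs of nuclear members to those of mt- members was -1.40. Complex IV had the highest mt- sum, 24189 ± 1582 CPM from 3 genes, against 4996 ± 291 CPM from its 15 nuclear members. The mt- genes of complex I summed to 10688 ± 684 CPM and its 37 nuclear members to 5616 ± 437 CPM. For complex V the sums were 8975 ± 413 CPM from 2 mt- genes and 5290 ± 436 CPM from 16 nuclear ones, and for complex III 4120 ± 302 CPM from mt-Cytb alone and 1832 ± 104 CPM from 8 nuclear genes. Complex II, with no mt- gene, had the lowest sum of the complexes, 380 ± 56.2 CPM from 4 genes.

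**Figure D1:**
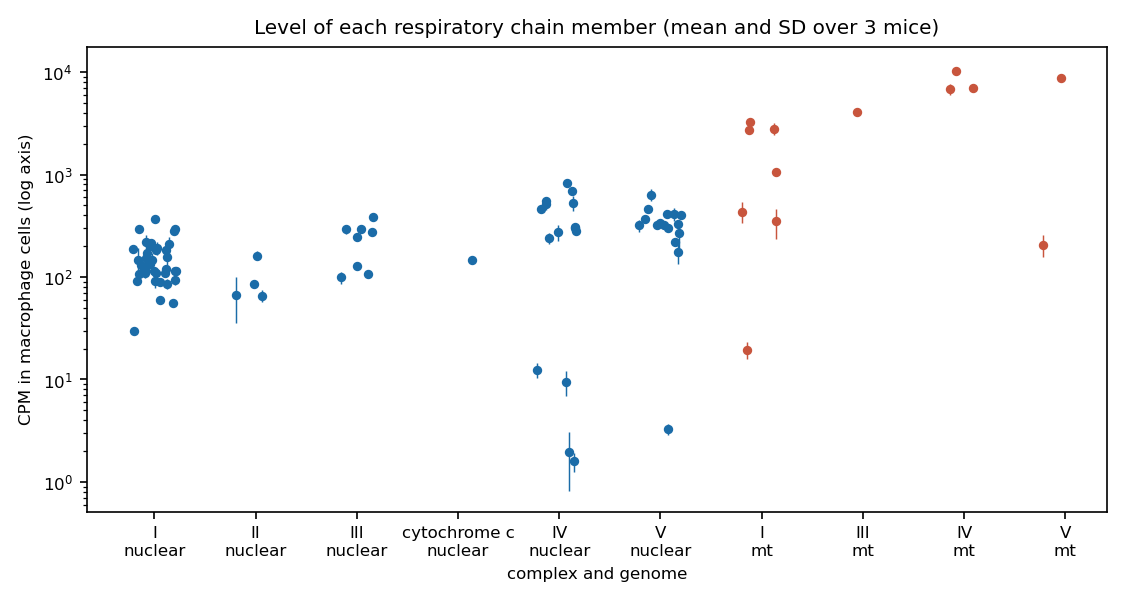
Level of each member in CPM (log axis), grouped by complex and by genome, with 1 point per member at its mean over the 3 mice and a line for the SD. The mt- members sit above the nuclear members of the same complex, apart from mt-Nd6 (19.5 CPM), which lies below the nuclear members of complex I, and mt-Atp8 (207 CPM) and mt-Nd4l (348 CPM), which fall within the nuclear range of their complexes.

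Within the mitochondrial set the levels differed widely between genes. mt-Co3, a core subunit of complex IV, reached 10918, 10358 and 9750 CPM in mice 1, 2 and 3. mt-Nd6, the single member encoded on the light strand, reached 16.0, 23.2 and 19.2 CPM. All 3 mice kept this order by a wide margin.

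Overlapping mt- genes lie on a single mature transcript, and counts within such a pair are uncertain. The end of mt-Atp8 and the start of mt-Atp6, subunits of the proton channel part of ATP synthase, share 43 bases at chrM:7927-7969 (plus strand, build mm10, GENCODE M21), shown here because a read inside them lies in both genes. The capitals mark the start codon of mt-Atp6.
mt-Atp8 and mt-Atp6 overlap: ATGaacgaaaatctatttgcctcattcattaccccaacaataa
mt-Atp8 was counted at 207 CPM and mt-Atp6 at 8768 CPM, a ratio of 42.3. mt-Nd4l and mt-Nd4, which share 7 bases at chrM:10167-10173, stood at 348 and 3277 CPM, a ratio of 9.40. In both pairs the gene nearer the 3′ end held the higher count.

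Levels of single nuclear subunits also differed widely within a complex. Cox4i1, the ubiquitous form of a regulatory complex IV subunit, was the highest at 832, 797 and 838 CPM in mice 1, 2 and 3. Its hypoxia- and lung-associated form Cox4i2 stood at 3.25, 1.25 and 1.35 CPM on 204 UMIs in all. Of another complex IV subunit, the muscle form Cox6a2 stood at 1.45, 1.33 and 1.98 CPM, below what the test required. Its counterpart Cox6a1 had 253, 235 and 330 CPM. Cox4i1 and Cox6a1 were thus the higher isoforms in every mouse. In complex I the highest was Ndufa4 (372 CPM), a subunit now assigned to complex IV, and the lowest Ndufs1 (29.7 CPM), the largest iron-sulfur subunit. In complex III the hinge protein gene Uqcrh (389 CPM) was highest and the core protein gene Uqcrc2 (99.0 CPM) lowest. Atp5e, the epsilon subunit gene, led complex V at 638 CPM, and Atp5s was last at 3.27 CPM. In complex II Sdhb, the iron-sulfur subunit, had 162 CPM and the membrane anchor Sdhc 65.3 CPM.

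Variation between mice was taken over members with a mean of at least 10 CPM, with a median coefficient of variation of 6.83% over 77 nuclear members and 7.83% over the 13 mt- members. Cycs, which encodes cytochrome c, stood at 147.3, 147.9 and 143.3 CPM. Sdhd, the other membrane anchor of complex II, varied most among these, with 66.0, 36.1 and 99.97 CPM (47.4%). Ndufa3, a small accessory subunit of complex I, was also lowest in mouse 2, at 161, 95.3 and 180 CPM, as was Atp5k, a dimerization subunit of ATP synthase, at 283, 187 and 332 CPM. The mice share 1 label, so these differences were not tested.

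In the fits of classes against one another, 70 of 80 nuclear members tested passed the threshold in at least 1 of the 12 classes other than cluster 0, and 43 of them in both directions. Of all 8909 genes tested 79% passed it in at least 1 of these classes and 48.5% in both directions, near the shares of the nuclear members. All 13 mt- members did so, 5 of them in both directions. By level and among the same 12 classes, 42 nuclear members were highest in the cycling S-like class and 24 in the cycling G2M-like class. With cluster 0 included, that cluster held the highest level of 56, the S-like class that of 14 and the G2M-like class that of 9. Among the 12, cluster 4 held the lowest level of 23, and the LYVE-1 resident-like and the heat shock and immediate early-like classes that of 14 each.

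**Figure D2:**
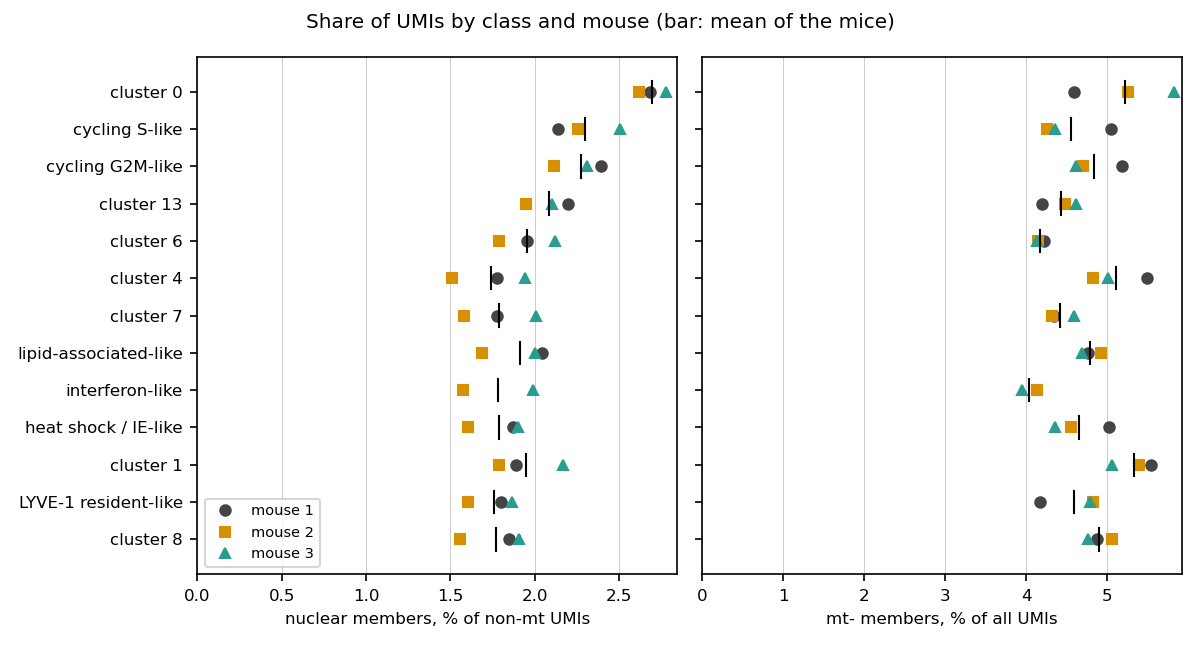
Nuclear share of non-mitochondrial UMIs and mt- share of all UMIs in percent, by macrophage class, with 1 symbol per mouse and a bar at the mean (heat shock / IE-like stands for the heat shock and immediate early-like class). Cluster 0 and the cycling classes are highest in the nuclear share (2.69%, 2.30% and 2.27%) while cluster 1 (5.34%) and cluster 4 (5.11%) are among the highest in the mt- share.

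Fold changes below are log2, of a class against the average of the other classes with equal weight, scaled with TMM factors and tested with edgeR's quasi-likelihood test with the mouse as a block. Adjusted p-values are Benjamini-Hochberg values over the 8909 genes tested, with a threshold of 0.05 in each class, and "higher", "lower", "rose" and "fell" are used of differences that passed it. The 3 mice give every class 3 values at most, and an exact sign-flip test over them could not go below 0.25. CPM values are not TMM-scaled. Scaling by total UMIs alone moved the median over all genes by -0.22 in cluster 4, 0.18 in the G2M-like class, 0.13 in cluster 1, 0.13 in the S-like class and -0.10 in cluster 7, and by less than 0.1 in the other 8 classes.

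**Figure D3:**
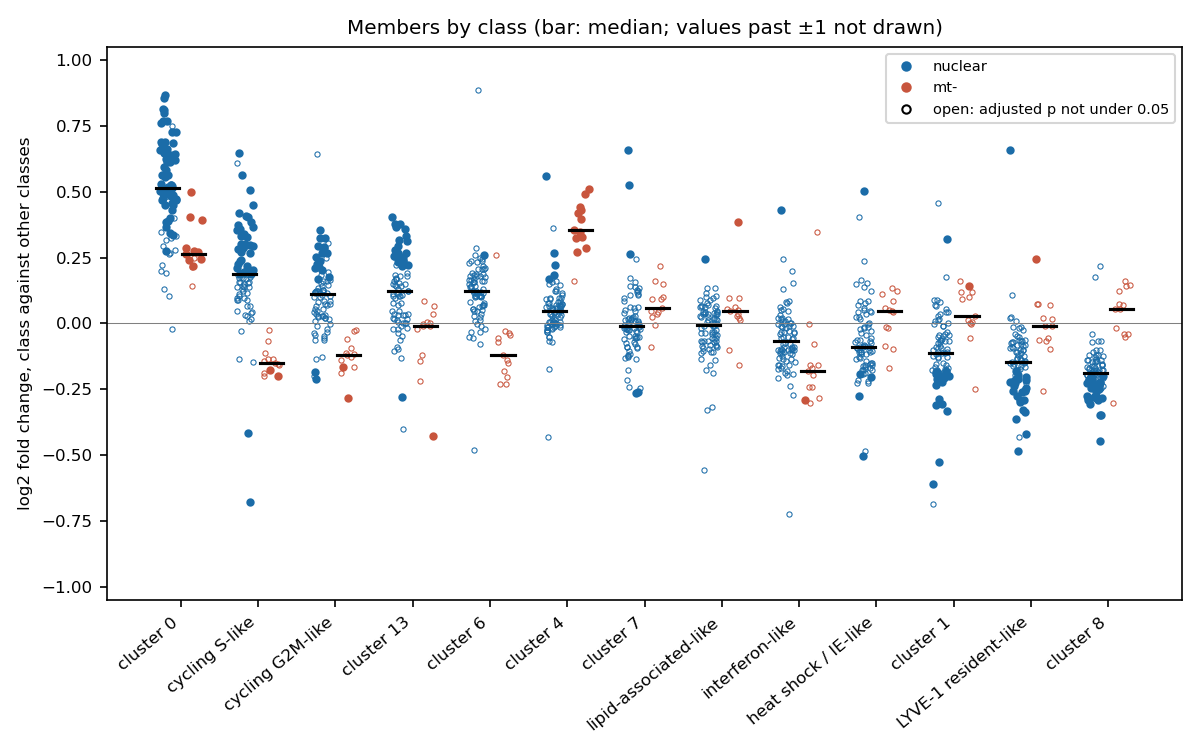
Log2 fold change of each tested member, class minus the other classes, with nuclear and mt- members side by side in each of the 13 classes, the median drawn as a bar and open circles for members not called. Nuclear members centre at 0.51 in cluster 0 and 0.19 in the S-like class and at -0.19 in cluster 8, and mt- members at 0.35 in cluster 4 (7 values beyond the axis are not drawn).

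The cycling S-like class, 411 cells with Mcm and other replication genes high, had more of the nuclear chain. Of 80 nuclear members 38 were higher and 2 lower, with a median of 0.19, where 15.8% of all genes tested were higher and 14% lower. By library size alone 67 were higher. Of 13 mt- members 0 were higher by edgeR's or by DESeq2's test (0 also at an unadjusted p under 0.05) and 2 were lower by both tests, with a median of -0.15. With library size alone 0 mt- members were lower by edgeR's test (0 also at an unadjusted p under 0.05), at a median of -0.03. The mt- share differed from that of the other classes by 0.268, -0.410 and -0.246 percentage points in mice 1, 2 and 3, so its sign was not the same in all mice. The gains spread over the complexes: 19 of 37 members of complex I, 1 of 4 of complex II, 5 of 8 of complex III, 4 of 14 of complex IV, 8 of 16 of complex V, and Cycs. The nuclear share of the class exceeded that of the other classes by 0.181, 0.554 and 0.480 percentage points in mice 1, 2 and 3, so mouse 1 was lowest. The count was 51 without mouse 1 but 13 without mouse 2 and 13 without mouse 3. The lower mt- calls numbered 12 without mouse 1, and without mouse 2 or without mouse 3 they numbered 0 (edgeR, with 0 and 2 at an unadjusted p under 0.05). When clusters came from one part of the UMIs and tests from the other, no S-like class formed, and 62.3% of these cells fell in the lipid-associated-like class.

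Ndufab1, the mitochondrial acyl carrier protein that is also a complex I subunit, had 174, 182 and 211 CPM in the S-like class of mice 1, 2 and 3, against 112 ± 22.2 CPM in the other classes. It rose by 0.65 ± 0.08 (log2 ± SE, edgeR's quasi-likelihood test with Benjamini-Hochberg adjustment, adjusted p = 6.76e-08). Atp5g1, one of the genes for the c ring of ATP synthase, had 394, 539 and 553 CPM there against 311 ± 40.4, a rise of 0.56 ± 0.07 (edgeR adjusted p = 2.56e-08). Both genes were above the mean of the other classes in every mouse. Cycs, the mobile carrier between complexes III and IV, had 198, 234 and 217 CPM against 142 ± 4.25 and rose by 0.51 ± 0.09 (edgeR adjusted p = 2.12e-05). The accessory complex I genes Ndufb6 (0.45) and Ndufa12 (0.42) followed. Cox7a2l, whose product joins complexes III and IV into supercomplexes, went the other way: 233, 171 and 189 CPM against 248 ± 28.6, at -0.42 ± 0.09 (edgeR adjusted p = 0.000231). Each of these 6 calls held with any 1 mouse left out. Cyc1, the cytochrome c1 gene that the symbol rule leaves out, rose by 0.36.

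Lists of genes around the chain are set beside the 15.8% of all genes that were higher in the S-like class. Of 77 tested genes of the mitochondrial ribosome 54 (70.1%) were higher, with Mrpl47 at 0.94. Of 24 glycolysis genes 18 (75%) were higher, with the enolase gene Eno2 at 1.45 and the aldolase gene Aldoc at 1.26. Nearer that background, 11 of 49 assembly factors were higher (22.4%), among them the complex I factor Ndufaf2 (0.82), and of 18 tricarboxylic acid cycle genes 4 (22.2%), among them Idh3a (0.83). Import genes were higher in 9 of 24 (37.5%), with Tomm40 of the outer membrane pore at 0.77, while Pink1, a kinase of mitochondrial quality control, was lower at -0.74. The class also had 7 hypoxia markers raised and was led by Arg1, Mmp12 and Bnip3 beside the replication genes, and it had a median of 13314 UMIs a cell. Their part in the result was not tested.

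The cycling G2M-like class, 861 cells, had a smaller rise. Of 80 nuclear members 17 were higher and 2 lower (median 0.11), against 13.2% and 12.3% of all genes, and with library size alone 64 were higher and the mt- median turned from -0.12 to 0.06. Without mouse 2 there were 0 higher calls by edgeR's quasi-likelihood test, with 14 at an unadjusted p under 0.05, and without mouse 3 there were 10. DESeq2's Wald test called 30 with all mice. Ndufa5, an accessory subunit of complex I, had 167, 149 and 148 CPM against 107 ± 7.01 (0.35 ± 0.08, edgeR adjusted p = 0.00085, and 0.0577 without mouse 2). Cycs had 193, 215 and 177 CPM against 144 ± 3.90 (0.29 ± 0.09, edgeR adjusted p = 0.0102, and 0.304 without mouse 2). Both genes were above the mean of the other classes in all 3 mice. mt-Co3 was lower at -0.17 with TMM factors (adjusted p = 0.238 and 0.337 without mice 2 and 3) and stood at 0.01 with library size alone.

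The LYVE-1 resident-like class, 703 cells with the scavenger and lectin genes of tissue-resident macrophages, had less of the nuclear chain, with 1 call among the mitochondrial members. Of 80 nuclear members 26 were lower and 1 higher (median -0.14), where 14.8% of all genes were lower and 18.1% higher, and of 13 mt- members 1 was higher and 0 lower by edgeR's and DESeq2's tests (1 at an unadjusted p under 0.05 by edgeR). The lower members were 10 of complex I, 1 of complex II, 3 of complex III, 4 of complex IV and 8 of complex V. The count was 40 without mouse 1, 8 without mouse 2 and 4 without mouse 3, with medians of -0.19, -0.14 and -0.11.

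Atp5g1 had 213, 226 and 273 CPM in the LYVE-1 resident-like class against 335 ± 41.3, at -0.49 ± 0.08 (edgeR's quasi-likelihood test, adjusted p = 2.07e-06). Cox4i1 had 675, 674 and 722 CPM against 841 ± 23.4, at -0.29 ± 0.06 (edgeR adjusted p = 0.000132). Uqcrc2 had 76.4, 70.5 and 88.5 CPM against 104 ± 14.8, at -0.36 ± 0.09 (edgeR adjusted p = 0.00147). All 3 genes were below the mean of the other classes in every mouse, and their calls held with any mouse left out. That of Cox4i1, however, ended with clusters and tests on separate UMIs (edgeR adjusted p = 0.0970). The LYVE-1 resident-like class of that setting was a wider one. These cells made up 26.2% of it, those of cluster 8 36.3% and those of cluster 7 26.9%. Cox7a1, the muscle and heart isoform of a complex IV subunit, was the single nuclear member that rose: 18.2, 8.94 and 17.1 CPM against 9.07 ± 2.23 (0.66 ± 0.16, edgeR adjusted p = 0.00133). Its call ended without mouse 3 (adjusted p = 0.0947) and with clusters and tests on separate UMIs (0.09, adjusted p = 0.772). mt-Atp8 was the mt- member called, at 160, 255 and 297 CPM against 198 ± 46.5 (0.25 ± 0.09, edgeR adjusted p = 0.0222, and 0.368 and 0.294 without mice 2 and 3).

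Related genes in the LYVE-1 resident-like class leaned the same way, beside an equal or larger fall in translation genes. Of 77 mitochondrial ribosome genes 35 were lower and 2 higher (median -0.28), and of 91 cytoplasmic ribosomal protein genes 79 were lower and 1 higher (median -0.38). Glycolysis had 11 lower and 5 higher of 24. The outer membrane channel Vdac1 (-0.66), the adenine nucleotide carrier Slc25a4 (-0.54) and the cycle enzyme Idh3a (-0.63) were lower, while Fh1 (0.48) and Idh2 (0.41), enzymes of the same cycle, were higher. Regulators of mitochondrial biogenesis did not lean towards lower values, with 2 of 13 higher and 1 lower. Of all genes tested 18.1% were higher and 14.8% lower in this class. Ppargc1b, a coactivator of respiratory genes, rose by 1.45 (edgeR adjusted p = 5.85e-06), Sirt1 by 0.51, and the mitochondrial deacetylase Sirt3 stood at -0.57.

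Cluster 8, the Ccl8, Apold1 and Gdf15 class, also had lower nuclear members, in calls that depended on single mice. Of 80 nuclear members 26 were lower and 0 higher (median -0.19; 0 higher also at an unadjusted p under 0.05 and by DESeq2's Wald test), against 4.34% of all genes lower and 5.7% higher. Of 13 mt- members 0 were called in either direction by edgeR and by DESeq2, with 2 higher and 1 lower at an unadjusted p under 0.05. The lower members were 9 each of complexes I and V, 3 each of III and IV, 1 of II, and Cycs. Without mouse 2 and without mouse 3 the count fell to 0 in each case, with 24 and 23 lower at an unadjusted p under 0.05, while without mouse 1 it was 32. The median stayed between -0.19 and -0.17 across these 3 fits. Ndufa9 of complex I had 47.6, 38.8 and 53.5 CPM against 62.5 ± 0.919 (-0.44 ± 0.10, edgeR adjusted p = 0.00446, and 0.396 without mouse 2 and 0.0811 without mouse 3). Uqcrc1, a core protein of complex III, had 112, 95.0 and 116 CPM against 135 ± 11.4 (-0.35 ± 0.08, edgeR adjusted p = 0.00374, and 0.329 and 0.0935 without mice 2 and 3). Both genes were below the mean of the other classes in every mouse. The cells of cluster 8 had a median of 21051 UMIs, and haemoglobin and other erythroid markers summed to 4.17, 447 and 2.89 CPM there in mice 1, 2 and 3, so their mean of 151 CPM came from mouse 2. In the other macrophage classes they ranged from 0 to 33.3 CPM in single mice. Their part in the result was not tested.

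Cluster 4 had more of the mitochondrial transcripts and few calls among the nuclear ones. Of 13 mt- members 12 were higher and 0 lower (median 0.35; 0 lower also at an unadjusted p under 0.05 and by DESeq2's Wald test), against 14.4% of all genes higher and 9.94% lower, while 6 of 80 nuclear members were higher and 0 lower (median 0.05; 2 lower at an unadjusted p under 0.05, 1 lower by DESeq2). With library size alone the mt- median was 0.13 with 6 higher, and the nuclear median turned to -0.17 with 37 lower and 1 higher. Under both scalings the mt- median lay above the nuclear one. As shares, the log2 ratio of nuclear to mt- UMIs was below that of the other classes by 0.389, 0.295 and 0.248 in mice 1, 2 and 3, in which the nuclear share was lower by 0.216, 0.265 and 0.139 percentage points and the mt- share higher by 0.751, 0.212 and 0.474 points.

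mt-Nd3, a membrane subunit of complex I, had 1150, 1158 and 1238 CPM in cluster 4 against 979 ± 83.2 in the other classes, at 0.51 ± 0.07 (edgeR's quasi-likelihood test with Benjamini-Hochberg adjustment, adjusted p = 2.28e-07). mt-Cytb, the catalytic subunit of complex III, had 5212, 4000 and 4534 CPM against 3962 ± 252, at 0.44 ± 0.06 (edgeR adjusted p = 1.76e-07). mt-Co3 had 12321, 11146 and 10837 CPM against 10052 ± 483, at 0.42 ± 0.05 (edgeR adjusted p = 5.69e-08). All 3 were above the mean of the other classes in every mouse, with the largest excess in mouse 1. Cluster 0 was not part of that mean. In mice 1, 2 and 3 it had 971, 1142 and 1284 CPM of mt-Nd3 and 4520, 4102 and 5091 CPM of mt-Cytb. Its mt-Co3 stood at 9768, 11647 and 12432.5 CPM, above cluster 4 in mice 2 and 3. The others ran from mt-Nd6 (0.49), mt-Nd2 (0.43) and mt-Atp6 (0.40) down to mt-Nd5 (0.29) and mt-Co1 (0.27), the catalytic subunit of complex IV. mt-Atp8 was not called (0.16 ± 0.08, edgeR adjusted p = 0.162). The calls of mt-Co1, mt-Nd4l and mt-Nd5 ended without mouse 3 (adjusted p = 0.0773, 0.106 and 0.197), and with clusters and tests on separate UMIs the class holding 76% of these cells again had 12 of 13 higher, at a median of 0.35.

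The 6 nuclear members that rose in cluster 4 included Cox6b2, known as the testis form of a complex IV subunit (15.3, 11.4 and 15.5 CPM against 11.8 ± 1.83, 0.56 ± 0.14, edgeR adjusted p = 0.00142, and 0.173 without mouse 3). Cox4i1 stood at 841, 732 and 838 CPM against 831 ± 18.9, a range that includes the mean of the other classes; its value was 0.18 (edgeR adjusted p = 0.0134) and turned to -0.04 with library size alone, and the call ended with any 1 mouse left out (adjusted p = 0.149, 0.0868 and 0.287 without mice 1, 2 and 3). Of the cytoplasmic ribosomal protein genes 82 of 91 were higher and 1 lower (median 0.29). T cell markers, 5 of 10 with a UMI and Trbc2, Cd8a, Trac, Cd3g and Cd3e at 0, summed to 242 CPM in cluster 4. Across the macrophage classes they summed to 61.4 to 308 CPM. Of 12 inflammatory markers 7 were raised in cluster 4 although none was among its leading genes. Their part in the result was not tested.

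At Leiden resolution 2, chosen after seeing the data, cluster 4 came apart. An inflammatory-like class that took 51.6% of its cells had 10 of 13 mt- members higher (median 0.30) and 1 of 80 nuclear members lower (median -0.09), against 10.2% of the 8550 genes tested higher and 3.84% lower. Another cluster, with 22.2% of its cells and led by Cd207, Il12b and Ccr7, also had 10 mt- members higher (median 0.39) but 28 of 80 nuclear members higher (median 0.23), against 10.5% of genes higher and 7.89% lower. The difference between these 2 classes was not tested.

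**Figure D4:**
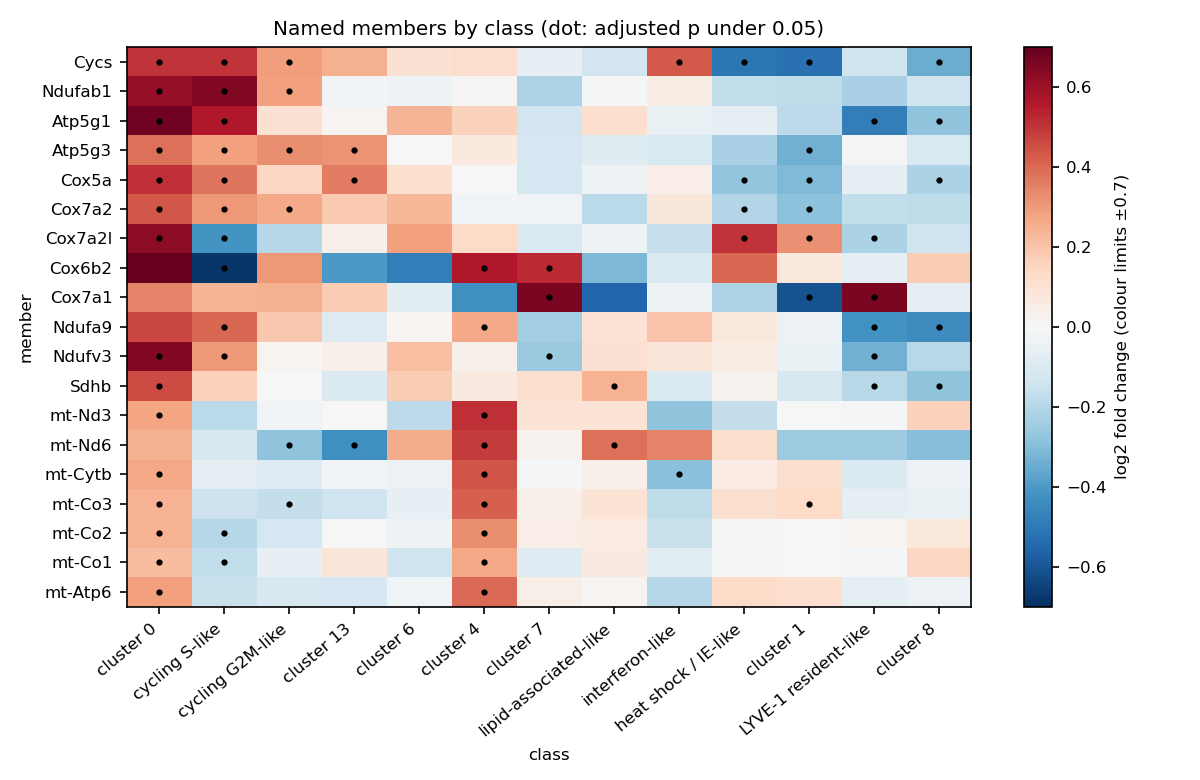
Log2 fold change of named members (rows) in each class (columns), class minus the other classes, on a colour scale that ends at ±0.7, with a dot where the adjusted p was under 0.05. The mt- members are red down the cluster 4 column, and Cycs runs from 0.51 in the S-like class to -0.52 in cluster 1.

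Cluster 1, led by Txnip, a glucose-responsive gene, had lower nuclear members with TMM factors and 1 call among the mt- members. Of 80 nuclear members 18 were lower and 1 higher (median -0.11), against 15.1% and 21.7% of all genes, but with library size alone 2 were lower and 10 higher (median 0.03). Without mouse 2 the count of lower members was 3. Of 13 mt- members 1 was higher by edgeR's test and 2 by DESeq2's, and 0 were lower by either (0 also at an unadjusted p under 0.05). With any 1 mouse left out 0 were higher by edgeR's test (1 at an unadjusted p under 0.05 without mouse 1, and 0 in the other fits), while with library size alone 8 were higher, at a median of 0.17. The mt- share of the class exceeded that of the other classes by 0.810, 0.828 and 0.532 percentage points in mice 1, 2 and 3. Its nuclear share differed by -0.0923, 0.0410 and 0.108 points, so the sign was not the same in all mice. Cycs had 112, 97.9 and 129 CPM against 151 ± 2.80, at -0.52 ± 0.10 (edgeR adjusted p = 2.77e-05). It was below the mean of the other classes in every mouse and with any mouse left out. Cox7a2l had 350, 348 and 267 CPM against 236 ± 26.2, at 0.32 ± 0.08 (edgeR adjusted p = 0.00104, and 0.0874 without mouse 2). Complex IV gave 7 of the lower members, complex V 6, complex III 3 and complex I 1 of 37. Of 24 glycolysis genes 16 were lower, with the glucose transporter Slc2a1 at -1.78, while 19 mitochondrial ribosome genes were higher and 4 lower of 77.

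Cycs and Cox7a2l stood in the same opposition in the heat shock and immediate early-like class. There Cox7a2l had 347, 358 and 260 CPM against 236 ± 26.0 (0.50 ± 0.08, edgeR's quasi-likelihood test, adjusted p = 4.96e-06), a call that held with any mouse left out. Cycs had 117, 84.8 and 108 CPM against 152 ± 1.61 (-0.50 ± 0.10, edgeR adjusted p = 0.000278, and -0.35 with adjusted p = 0.126 without mouse 2). Cox7a2l was high and Cycs low in all 3 mice. In all, 1 nuclear member was higher and 4 lower of 80, against 9.36% and 7.51% of all genes. The lower ones numbered 13 with library size alone, 8 by DESeq2's Wald test, 12 without mouse 1, 0 without mouse 2 (edgeR, 3 at an unadjusted p under 0.05) and 1 without mouse 3. Of the mt- members 0 of 13 mt- members were called by edgeR or DESeq2 (1 in each direction at an unadjusted p under 0.05 by edgeR).

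Cluster 13, with Retnla and Ear2, had 22 nuclear members higher and 1 lower of 80 (median 0.12), against 12.5% and 7.95% of all genes, and 1 mt- member lower and 0 higher (0 also at an unadjusted p under 0.05 and by DESeq2). It held 10, 183 and 165 cells of mice 1, 2 and 3, and without mouse 2 the count of higher members was 2. Cox5a, a matrix-facing subunit of complex IV, had 805, 653 and 607 CPM against 543 ± 27.8 (0.36 ± 0.07, edgeR adjusted p = 0.000134), and Atp5o, the stalk subunit gene of ATP synthase, 332, 252 and 257 CPM against 214 ± 10.7 (0.38 ± 0.08, edgeR adjusted p = 0.000639). Both were above the mean of the other classes in every mouse and with any mouse left out. By contrast, Uqcrfs1 (the Rieske protein of complex III, 0.40) and Ndufa6 (0.38) lost their calls without mouse 2 (edgeR adjusted p = 0.124 and 0.104). mt-Nd6 was lower at -0.43 (edgeR adjusted p = 0.0132, and 0.428 and 0.324 without mice 2 and 3). The cells of this class had a median of 27097 UMIs. Monocyte markers, 10 of 10 with a UMI, summed to 1258, 614 and 582 CPM in mice 1, 2 and 3, a mean of 818 CPM against 51.8 to 791 CPM in the other macrophage classes. Dendritic cell markers, 11 of 12 with a UMI and Clec9a at 0, summed to 362, 121 and 104 CPM, a mean of 196 CPM against 46.3 to 113 CPM. Their part in the result was not tested.

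The remaining classes held few calls. In the lipid-associated-like class 1 of 80 nuclear members was higher, Sdhb at 0.24 (edgeR adjusted p = 0.0458), and 1 of 13 mt- members, mt-Nd6 at 0.39 (edgeR adjusted p = 0.0384), against 4.4% of all genes. Both calls ended without mouse 2 (adjusted p = 0.565 and 0.441), without mouse 3 (0.398 and 0.209) and under most other settings. In the interferon-like class, fitted on 2 mice because mouse 1 gave 6 cells, 2 nuclear members were higher, against 3.39% of all genes, and mt-Cytb was lower (3036 and 3328 CPM against 4060 ± 260, -0.29 ± 0.08, edgeR adjusted p = 0.0215, and 0.224 with at most 8% mt- UMIs a cell), against 0.673%. Cycs was one of the 2, at 167 and 198 CPM against 146 ± 4.21 (0.43 ± 0.11, edgeR adjusted p = 0.0145). For mt-Cytb and Cycs the CPM of the other classes is a mean over all 3 mice. Within mice 2 and 3 the log2 differences were -0.284 and -0.285 for mt-Cytb and 0.304 and 0.536 for Cycs. In this class 8 of 13 mt- members were lower and 0 higher at an unadjusted p under 0.05 by edgeR. The mt- share of the interferon-like class differed from that of the other classes by -0.553 and -0.689 percentage points in mice 2 and 3. Cluster 7 had 3 higher and 2 lower of 80, against 11.4% and 6.08% of all genes. Cluster 6 had 1 higher, Atp5e at 0.26 (edgeR adjusted p = 0.153 without mouse 2 and 0.257 without mouse 3), against 3.4% of all genes higher and 1.18% lower. At an unadjusted p under 0.05 by edgeR it had 25 of 80 nuclear members higher and 0 lower. Of 13 mt- members 5 were lower and 0 higher at that p. Its log2 ratio of nuclear to mt- UMIs was above that of the other classes by 0.202, 0.223 and 0.207 in mice 1, 2 and 3. Its mt- share differed by -0.643, -0.535 and -0.479 percentage points and its nuclear share by -0.0173, 0.0381 and 0.0566. A hypoxia-like class formed at Leiden resolution 2, chosen after seeing the data, and there 0 of 80 nuclear and 0 of 13 mt- members were called by edgeR's quasi-likelihood test, against 3.15% of the 8550 genes tested higher and 0.585% lower. Of each set 1 member had an unadjusted p under 0.05, the medians were -0.02 and -0.06, and the smallest adjusted p-values 0.330 and 0.353. Complex II held few calls. Sdha and Sdhd were called in none of the 12 classes other than cluster 0, Sdhb in 3 and Sdhc in the S-like class (81.0, 83.3 and 92.0 CPM against 64.6 ± 9.12, 0.29 ± 0.09, edgeR adjusted p = 0.0129, and 0.235 and 0.0946 without mice 2 and 3).

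Cluster 0 had the highest nuclear share, and the lowest depth. Its 283 cells had a median of 2000 UMIs against 10214 over all macrophage cells, and they were kept out of the reference of the other contrasts. Of 80 nuclear members 62 were higher and 0 lower (0 also at an unadjusted p under 0.05 and by DESeq2's Wald test), against 9.04% of all genes higher and 7.9% lower, with a median of 0.51. The small subunit genes Atp5k (0.87), Ndufa3 (0.86) and Uqcr11 (0.82) had the largest values. Atp5k had 524, 333 and 537 CPM against 270 ± 78.0, above the mean of the other classes in each mouse. Of 13 mt- members 10 were higher, 12 without mouse 1, 1 without mouse 2 and 0 without mouse 3 (edgeR, 1 at an unadjusted p under 0.05), and with at most 8% mt- UMIs a cell 0 were higher by edgeR at either p. When clusters came from one part of the UMIs and tests from the other, the nearest cluster held 82% of these cells. They made up 51.8% of it, and 1 of 78 nuclear members was higher there, at a median of 0.09. Cytoplasmic ribosomal protein genes were higher in 80 of 91 (median 0.53), and tumour epithelium markers summed to 103 CPM, the highest among macrophage classes, against 33380 CPM in the epithelium-like cluster. Their part in the result was not tested.

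Across cells, the nuclear share rose and then fell with the mt- share. In macrophage cells with up to 3% mt- UMIs the nuclear members took 1.72%, 1.68% and 1.97% of non-mitochondrial UMIs in mice 1, 2 and 3, at median depths of 11798, 9222 and 7711 UMIs. In cells with 3% to 6% they took 1.99%, 1.80% and 2.06%. In cells with 9% to 12% they took 1.59%, 1.22% and 1.67%, and in those with 12% to 15% they took 1.04%, 0.842% and 1.20%. The last bin was the lowest in each mouse, on 34, 44 and 75 cells. The median depth fell with it, from 17280, 15449.5 and 9973 UMIs at 3% to 6% to 4437, 4007 and 1998 UMIs at 12% to 15%, and its part in the result was not tested.

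**Figure D5:**
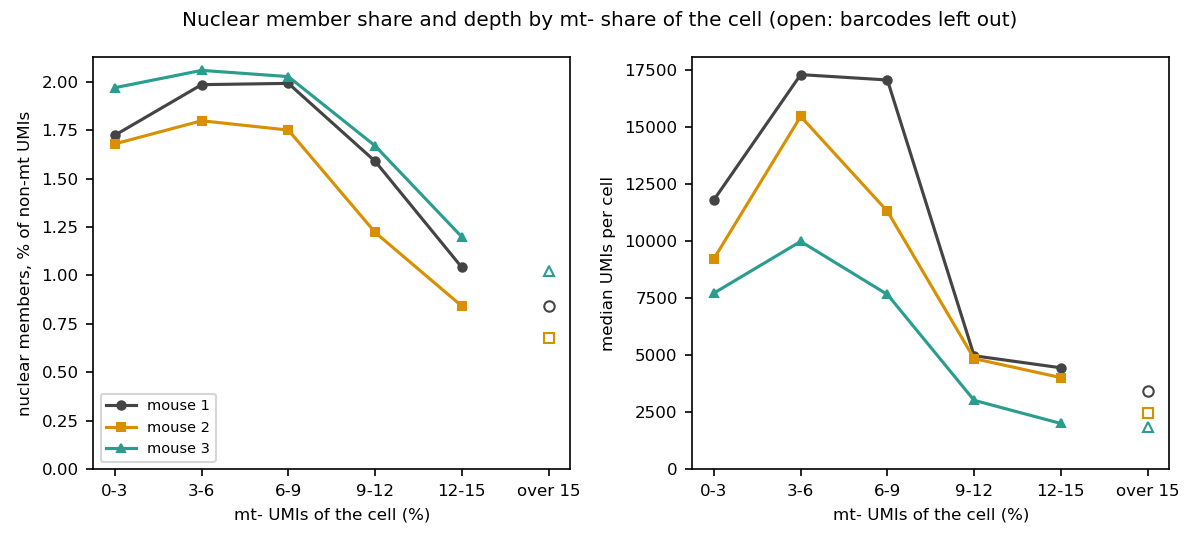
Nuclear share of non-mitochondrial UMIs (percent, left) and median UMIs a cell (right) in bins of the mt- share of the cell (percent), with 1 line per mouse. Open symbols stand for barcodes with at least 500 genes that were left out for more than 15% mt- UMIs. Each line of the share is highest between 3% and 9% and ends at 1.04%, 0.842% and 1.20% in the bin of 12% to 15%.

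The promoters of nuclear members held binding letters of factors known to drive respiratory genes more often than promoters in general. RefSeq promoters of build GRCm38.p6, from 250 bases before to 50 after a gene's start, were matched to 66 of the 81 nuclear members, which have 71 promoters. The NRF1 letters GCATGCGC, on either strand (reverse complement GCGCATGC), were in 11 of these 71 (15.5%) and in 891 of 32851 promoters of all genes (2.71%). The ETS letters CCGGAAG were in 22.5% against 8.86%, the YY1 letters AAGATGGCG in 9.86% against 1.40%, and the ERR alpha letters AAGGTCA in 11.3% against 4.72%, each on both strands. A match is a description and not a bound site. The windows of 60 bases below, 5′ to 3′ on the gene's own strand and upstream of the start, are shown for 5 members that were chosen with their values seen, 1 each for cytochrome c and complexes I, II, IV and V, and the capitals mark the NRF1 letters, in Cox6a1 and Atp5k matches on both strands that overlap.
Cycs, chr6:50566596-50566655, minus strand: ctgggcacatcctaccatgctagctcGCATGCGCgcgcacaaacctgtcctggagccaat
Ndufa8, chr2:36049339-36049398, minus strand: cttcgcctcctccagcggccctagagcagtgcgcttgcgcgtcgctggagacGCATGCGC
Sdhb, chr4:140961191-140961250, plus strand: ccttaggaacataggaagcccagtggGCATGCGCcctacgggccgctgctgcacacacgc
Cox6a1, chr5:115349085-115349144, minus strand: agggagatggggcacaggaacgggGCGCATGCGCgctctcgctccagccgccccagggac
Atp5k, chr5:108434414-108434473, minus strand: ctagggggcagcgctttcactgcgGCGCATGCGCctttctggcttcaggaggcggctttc
In the S-like class Cycs (0.51), Ndufa8 (0.35), Atp5k (0.24) and Cox6a1 (0.20) were higher, and Sdhb stood at 0.16 (edgeR adjusted p = 0.115). Of all 80 nuclear members tested 38 were higher in that class, against 15.8% of all genes. Ndufa6, which also has the NRF1 letters, was higher in cluster 13 (0.38) and lower in the G2M-like class (-0.21). Whether the letters go with a direction was not tested. In cluster 8 Cycs (-0.35), Sdhb (-0.28) and Atp5k (-0.24) were lower, and in cluster 1 Cycs and Cox6a1. Of all 80 nuclear members 26 were lower in cluster 8 and 18 in cluster 1, against 4.34% and 15.1% of all genes. Ndufa8 fell among LYVE-1 resident-like cells (97.5, 83.0 and 102 CPM against 117 ± 12.9, -0.33 ± 0.09, edgeR adjusted p = 0.00326, and 0.0947 and 0.124 without mice 2 and 3). The values of Sdhb in cluster 8 were 135, 127 and 165 CPM against 168 ± 14.0 (-0.28 ± 0.08, edgeR adjusted p = 0.0126, and 0.351 and 0.192 without mice 2 and 3). Cox6a1 fell in cluster 1 (210, 206 and 312 CPM against 275 ± 53.7, -0.30 ± 0.08, edgeR adjusted p = 0.00183, and 0.0717 with library size alone). It was below the mean of the other classes of its own mouse in all 3 mice, as the log2 differences of -0.48, -0.29 and -0.18 show.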

How the data were processed

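The deposited matrices hold raw UMI counts per gene and barcode, which the authors made with Cell Ranger 3.0.2, per the submitters' processing notes, on build mm10. The sources used here do not name the annotation version. Barcodes with at least 500 genes and at most 15% mt- UMIs were kept, and Scrublet in scanpy 1.11.5 (Python 3.11.15) removed 26 (0.267%), which shows that the caller did not work, and removal of the highest scores at 0.8% per 1000 barcodes was an alternative. Clustering used 2000 variable genes, 30 components, 15 neighbours and Leiden resolution 1, with members, mt-, ribosomal protein and related-list genes left out. A class name needed 5 markers of a list. UMIs were summed per mouse and class (at least 10 cells in 2 mice) and compared in R 4.3.3 by edgeR 4.0.16 (TMM, filterByExpr, robust quasi-likelihood F test, class and mouse as terms, two-sided). The mouse block was the design because all classes come from the same 3 animals. The SE of a fold change was taken from it and the F statistic. Where edgeR's bound for counting noise set the p-value, that SE is smaller than the p-value implies. No test was made of scores over members. The script was tested on simulated data.

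The members and all lists were chosen with earlier results of these data known. Genes named were all mt- members, Sdha to Sdhd, Cycs, Cox4i1, Cox4i2, Ndufa4, Ndufa4l2 and Cyc1, in each class the 6 largest called members in each direction with 1 sign in all mice, the highest and lowest of each complex, and the most and least variable. Of related lists the 2 largest in each direction were eligible. Sdhd, Ndufa3 and Atp5k were named for their spread over mice, and Ndufa8 and Cox6a1 also for their promoters, after their values were seen. Alternatives covered DESeq2 1.42.0 size factors and Wald test, the low-count filter, the block, library sizes, the reference, cell filters, doublets, Leiden resolutions 0.5 and 2, separate UMIs, cell minimums and each mouse left out. Counting intervals are not given because values are means over mice. The sample titles number the tumours as rep1, rep2 and rep3, and these were taken as separate animals.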

Additional observations from a re-analysis of the deposited data

Results flagged for a closer look

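The barcodes that the limit of 15% mt- UMIs left out held a signal of their own, in data the comparisons did not use. They were 387, 298 and 307 barcodes in mice 1, 2 and 3, or 36%, 12.1% and 4.13% of each library. Of these 318, 222 and 213 had at least 500 genes, and the values that follow are theirs. Nuclear members took 0.844% (0.8436), 0.678% (0.6782) and 1.02% (1.0212) of non-mitochondrial UMIs in them. In the kept cells of the same mice the shares were 1.93%, 1.78% and 2.05%. The left-out barcodes with at least 500 genes had median depths of 3424, 2464 and 1848 UMIs. The share was lower than in kept cells in 3 of 3 mice, and the part of depth in it was not tested.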

How the results depend on the processing

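Counts of members called moved with the settings more than their medians. Without the replicate block, that is without the pairing of classes by mouse, cluster 1 and the LYVE-1 resident-like class had 3 lower nuclear members each and cluster 8 had 0 (edgeR, 22 at an unadjusted p under 0.05), the higher ones 5 in cluster 13, 3 in the G2M-like class and 13 in the S-like class, and the higher mt- members 6 in cluster 4 and 3 in cluster 0. With each mouse left out in turn the counts ran from 4 to 40 (LYVE-1 resident-like, lower), 3 to 15 (cluster 1, lower), 0 to 32 (cluster 8, lower), 2 to 22 (cluster 13, higher), 0 to 18 (G2M-like, higher), 13 to 51 (S-like, higher), 44 to 54 (cluster 0, nuclear higher), 9 to 12 (cluster 4, mt- higher) and 0 to 12 (cluster 0, mt- higher). Without a filter on low counts there were 12 lower (LYVE-1 resident-like), 4 lower (cluster 8) and 24 higher (S-like). Against all other macrophage cells pooled there were 8 lower (LYVE-1 resident-like), 6 lower (cluster 1), 38 higher (G2M-like) and 1 mt- higher (cluster 0). With all other classes as reference there were 32 lower in cluster 1, 54 lower in cluster 8 and 11 higher in the G2M-like class. DESeq2's Wald test called 51 lower in cluster 8 and 30 higher in the G2M-like class. At least 20 cells in each mouse left 13 lower in cluster 8. Clusters and tests on separate UMIs gave 16 lower (LYVE-1 resident-like) and 28 higher (G2M-like), and Leiden resolution 0.5 gave 32 higher (G2M-like). On separate UMIs the cells of the original LYVE-1 resident-like class made up 26.2% of the class of that name. Chosen after seeing the data, Leiden resolution 2 gave 11 lower (LYVE-1 resident-like), 10 higher (G2M-like) and 18 higher (S-like). At that resolution 39.9% of the original S-like cells fell in the class of that name and 49.1% in the lipid-associated-like class. Cells of the original LYVE-1 resident-like class made up 53.4% of the class of that name, and those of the original G2M-like class 96.4%. Library size alone gave 2 lower (cluster 1), 8 lower (cluster 8), 64 higher (G2M-like), 67 higher (S-like) and 6 mt- higher (cluster 4). With at most 8% mt- UMIs cluster 0 had 0 higher mt- members (edgeR, also 0 at an unadjusted p under 0.05), and 10 called ones reversed: mt-Atp6 -0.17, mt-Atp8 -0.19, mt-Co1 -0.15, mt-Co2 -0.18, mt-Co3 -0.20, mt-Cytb -0.29, mt-Nd3 -0.26, mt-Nd4 -0.26, mt-Nd4l -0.0688 and mt-Nd5 -0.0458. With library size alone mt-Co3 reversed to 0.0127 in the G2M-like class and Cox4i1 to -0.0395 in cluster 4. The nuclear share of 1.92% was 1.77% as a median over cells and 1.85% to 1.99% with a mouse left out. The mt- share of 4.80% was 4.59% with at most 8% mt- UMIs, 4.64% as a median over cells and 4.72% to 4.85% with a mouse left out. Apart from fewer samples and fewer cells by construction, the cause was not tested. Of the other values recomputed for single members, 1262 kept their side of the threshold, 349 lost it and 12 reversed. Depth limits members near the floor such as Cox4i2 (204 UMIs) most.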

Other observations

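Isoforms of complex IV subunits that are known from other tissues were measured at low counts, and their values are given without a reading. Cox4i2 stood at -2.26 among LYVE-1 resident-like cells (0.956, 0.319 and 0.155 CPM in mice 1, 2 and 3), at 2.02 in the interferon-like class (6.46 and 2.86 CPM in mice 2 and 3) and at 1.01 in cluster 4 (6.65, 0.922 and 2.06 CPM), all past the threshold by edgeR's quasi-likelihood test (adjusted p = 0.0143, 0.0464 and 0.0389) on 204 UMIs in all. Its calls ended in the first of these without mouse 2 (adjusted p = 0.117) and in cluster 4 without mouse 1 (0.222). Cox6b2 was lower in the S-like class at -0.68 (8.75, 5.46 and 9.12 CPM against 12.4 ± 1.89, edgeR adjusted p = 0.0108, and 0.0902 and 0.0936 without mice 2 and 3) and higher in cluster 7 at 0.52 (16.99, 14.4 and 14.5 CPM against 11.7 ± 1.92, edgeR adjusted p = 0.02, and 0.0503, 0.277 and 0.129 without mice 1, 2 and 3).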
